A study of Mus musculus with 6 samples.

Results

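The genes described here lie around Mtdh on mouse chromosome 15, the gene that was inactivated in these macrophages. They are 52 named genes, Mtdh itself left out, between about 14 and 54 Mb of the GRCm38 chromosome, of 46983 genes in the table. All 52 were found by symbol on chromosome 15 in the GENCODE mouse release 21 annotation. Start and end positions below are GRCm38 coordinates from that annotation, and a distance is that of a gene's lowest coordinate from the lowest coordinate of Mtdh. Genes with lower coordinates than Mtdh (7 of the list) are on its lower side and the other 45 on its higher side. The list is not the whole interval. It leaves out 166 further genes of the table between the same limits, 23 of them expressed well enough to be tested, and it was drawn up with earlier results of these data known.

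RNA came from bone marrow derived macrophages, cells grown for 7 days from marrow of the femur in a medium with 10% serum and 20% of the supernatant of L929 cells, a source of macrophage growth factor, and left untreated. One group of 3 libraries was from C57BL/6 wild-type (WT) mice and the other group of 3 from mice with an AEG-1 knockout (AEG-1 KO), whose strain is also given as C57BL/6. Mtdh encodes the protein AEG-1, a membrane-bound and nuclear protein studied in cancer and inflammation. The sources used here do not give the deleted part of the gene, the origin of the allele, the crosses behind the line, the age of the mice or whether each library is a separate animal. The p-values therefore refer to the variation from library to library, which may be technical.

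A gene on the chromosome of an engineered allele is inherited together with that allele unless recombination separates them, and genes near each other are passed on together most often. Neighbouring genes can also share enhancers and chromatin domains, and a start site that fires in opposite directions can serve a pair of genes at once. The genes around Mtdh have no common function. They include lysosomal and endoplasmic reticulum proteins, translation factors, heparan sulfate genes, Wnt pathway receptors and ligands and genes known mainly from neurons or stroma.

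Depth and identity of the libraries were as follows. Total counts ran from 42548170 to 58947230 per library. Mtdh (34082694 to 34145624, plus strand) had a read count of 11560, 14849 and 11806 in the WT libraries and of 15, 22 and 15 in the AEG-1 KO libraries (replicates 1 to 3, the order kept throughout), so that each library carried the Mtdh level of its label. Of 10 macrophage markers, all tested, Csf1r, Mertk and Cd14 rose (log2 fold changes 0.38, 0.39 and 0.35, edgeR adjusted p from 0.000919 to 0.0016), Adgre1 fell (-0.19, edgeR adjusted p = 0.0238) and 6 were not called, with a summed level, most of it from Lyz2 and Adgre1, of 18301 to 18695 CPM in WT and 18769 to 19343 CPM in AEG-1 KO (CPM, counts per 1e6 of the library after TMM scaling). The summed levels of the neutrophil, monocyte, stromal, endothelial and lymphoid lists were higher in all AEG-1 KO libraries than in all WT libraries. The endothelial sum was 11.2 to 12.4 CPM in WT and 13.4 to 15.5 CPM in AEG-1 KO, with no marker called. The lymphoid sum was 1.79 to 2.27 and 2.71 to 3.33 CPM, also with no marker called. The dendritic sums overlapped (1.47 to 3.93 and 1.44 to 2.96 CPM). Of 12 neutrophil markers 6 rose (summed level 173 to 210 CPM in WT and 256 to 300 CPM in AEG-1 KO), of 8 monocyte markers 5 rose (101 to 110 and 126 to 132 CPM), and of 14 stromal markers 6 rose (15.4 to 22.8 and 23.6 to 29.1 CPM), with no called fall in any of the 3 lists and no marker at 0 in all libraries. Of those picked after their values were seen, stromal Lum, too low to be tested (8, 12 and 12 reads in WT and 4, 1 and 4 in AEG-1 KO), and monocyte Cx3cr1 (log2 fold change -0.17, edgeR adjusted p = 0.167) were lower in all AEG-1 KO libraries than in all WT libraries. The part of these markers in the changes below was not tested. In bulk RNA a change in the number of cells of a type cannot be told apart from a change in RNA per cell.

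Of the 52 genes, 43 had 10 or more counts in 3 libraries and were tested, and the same 43 passed the expression filter of the fit. Of these, 11 rose and 12 fell in AEG-1 KO and 20 did not pass the test (quasi-likelihood test in edgeR at an adjusted p under 0.05, with Benjamini-Hochberg adjustment over the 16115 genes tested). Over all genes tested the test called 6.35%, with 3.31% higher and 3.04% lower. The listed genes moved both ways: their median log2 fold change was -0.02, beside 0.01 over all genes, while the median size of the change regardless of sign was 0.28, beside 0.11. Changes of at least 1 on the log2 scale were called in 8 listed genes, against 0.41% of all genes tested. The groups did not overlap in 31 of the 43, against 26.8% of all genes tested. These counts describe a selected list, so the whole interval is given beside it. Between 14 and 54 Mb, 25 of 66 tested genes other than Mtdh were called (37.9%), 12 higher and 13 lower, against 35 of 477 (7.34%) on the rest of chromosome 15 and 960 of 15512 (6.19%) on other chromosomes. The 23 unlisted tested genes of the interval held 2 of these calls. Leaving out AEG-1 KO replicate 1 lowered the listed calls from 23 to 15 and the calls of the interval from 25 to 17 of 67. Over all genes the same fit lowered the calls from 1023 to 667, or from 6.35% to 4.08% of the genes tested.

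**Figure D1:**
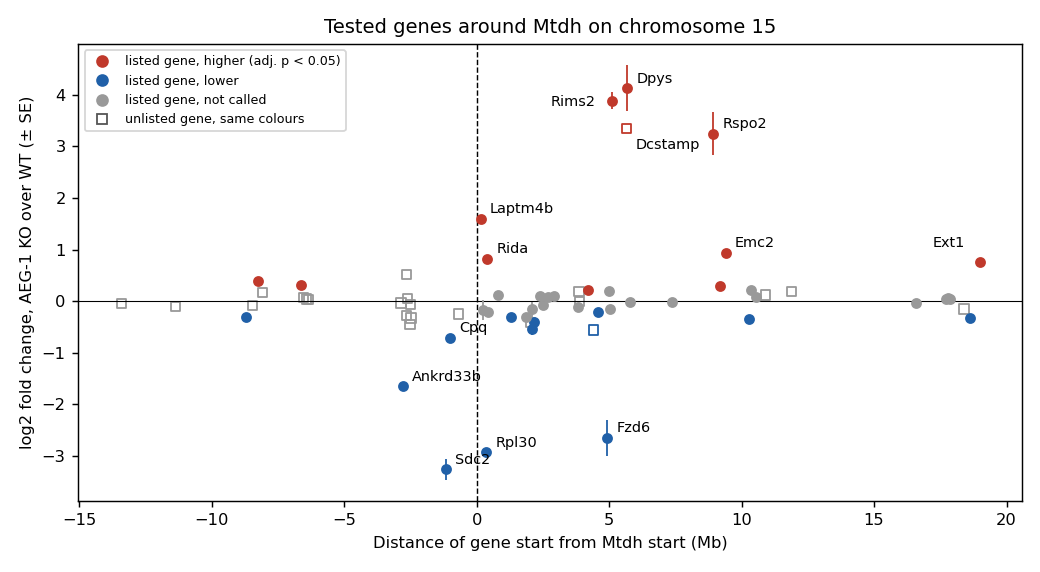
Fold change on the log2 scale (AEG-1 KO relative to WT, with SE bars for listed genes) against the distance in Mb of each gene's start from that of Mtdh, for 43 listed genes (dots) and 23 unlisted tested genes of the interval (open squares), red where called higher, blue where called lower and grey where not called; Mtdh is left out. Large changes in both directions lie within 10 Mb of the dashed line that marks Mtdh, among many genes near 0.

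Distance did not order the listed genes evenly. Within 2 Mb of Mtdh 6 of 10 tested were called, at 2 to 5 Mb 6 of 12, at 5 to 10 Mb 8 of 12 and at 10 to 20 Mb 3 of 9. With the unlisted genes included, the counts over all of chromosome 15 were 6 of 11, 7 of 23, 9 of 18 and 3 of 14 in the same classes. Direction differed by class: 1 rose and 5 fell among the listed genes at 2 to 5 Mb, and 7 rose and 1 fell at 5 to 10 Mb. No test was made of these differences between classes. In windows of 10 Mb, the share called was highest just above Mtdh (16 of 33 tested genes, 48.5%), and it was 31.6% in the window below it. Farther above, it was 25% at 10 to 20 Mb, 17.9% at 20 to 30 Mb, 11.5% at 30 to 40 Mb and 3.57% to 5.85% from 40 Mb onwards. Farther below, 0 of 2 tested genes were called at 10 to 20 Mb and 3 of 41 (7.32%) at 20 to 30 Mb. A small window at the far lower end, with 6 tested genes, held 2 calls.

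**Figure D2:**
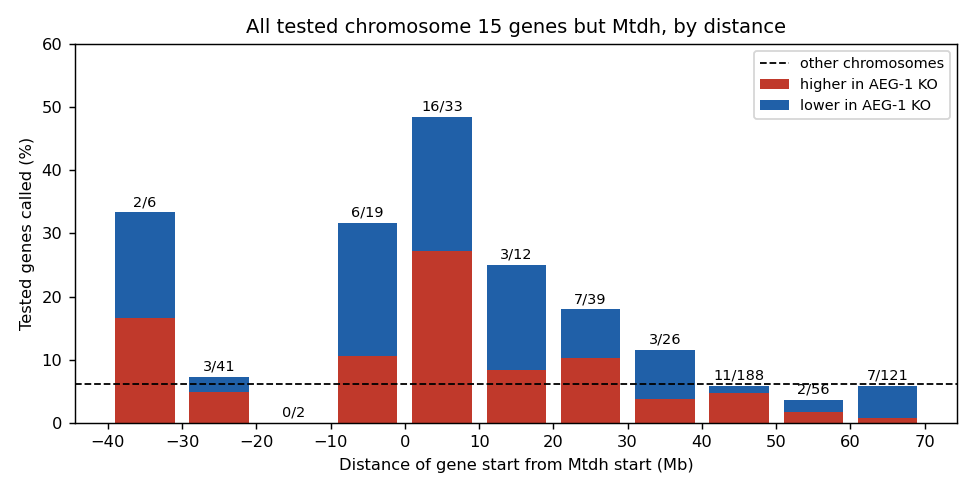
Percentage of tested chromosome 15 genes called higher (red) and lower (blue) in AEG-1 KO in 10 Mb windows of distance from Mtdh, Mtdh left out, with the number called over the number tested above each bar and the 6.19% of other chromosomes as a dashed line. The bar from 0 to 10 Mb stands at 16 of 33, and the 3 bars beyond 40 Mb lie below the dashed line.

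On the lower side, 6 listed genes were tested and 6 were called, 2 higher and 4 lower. The list takes the called genes of that side and leaves out 15 tested ones, none of which was called, so the share for the side is 6 of 21. The strongest changes there were falls of Sdc2 and Ankrd33b. Sdc2 (ENSMUSG00000022261, 32920723 to 33034935, plus strand), which encodes the cell surface heparan sulfate proteoglycan syndecan 2, was at 4.83, 4.03 and 5.16 CPM in WT replicates 1 to 3 and at 0.599, 0.305 and 0.536 CPM in AEG-1 KO replicates 1 to 3. The lowest WT library lay far above the highest AEG-1 KO library. In reads this was 675 in all WT libraries and 64 in all AEG-1 KO libraries, a ratio of 9.54 (95% exact binomial interval 7.38 to 12.5, which covers counting error only). The log2 fold change was -3.26 ± 0.21 (SE; adjusted p by edgeR = 5.69e-05). A stretch of at least 95% identity over 100 nucleotides is shared with 1 other annotated gene that is not a row of the table, so the assignment of its reads is uncertain to that extent.

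Ankrd33b (ENSMUSG00000022237, 31291478 to 31367726, minus strand), an ankyrin repeat protein gene 2.79 Mb from Mtdh, was at 56.4, 50.7 and 55.6 CPM in WT and at 18.4, 16.6 and 16.8 CPM in AEG-1 KO. Its 3 AEG-1 KO libraries lay close together at 31.8% of the WT mean (log2 fold change -1.65 ± 0.07 SE; adjusted p by edgeR = 3.25e-06). Its tested neighbours on both sides, Dap and Ropn1l, were not called, with log2 fold changes of -0.03 and 0.52. Cpq, a secreted and lysosomal carboxypeptidase gene that follows Sdc2, was at 51.8, 55.2 and 53.6 CPM in WT and 32.8, 32 and 33.7 CPM in AEG-1 KO. It fell to 61.4% of WT (log2 fold change -0.70 ± 0.05 SE; adjusted p by edgeR = 0.000101). It overlaps an exon of a gene on the opposite strand, and since strand use in counting is not given, reads of the overlapping genes cannot be told apart.

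A further 3 genes of the lower side, at over 6 Mb, changed by less. Retreg1, an endoplasmic reticulum membrane protein that acts as a receptor for autophagy of that organelle, rose from 57.4 ± 1.94 CPM to 75.3 ± 3.22 CPM (mean ± SD, n = 3; 0.39 on the log2 scale, adjusted p in edgeR = 0.00231). Ank, known for the export of pyrophosphate from cells, rose from 26.2 ± 1.32 to 32.7 ± 1.87 CPM (log2 fold change 0.32, edgeR adjusted p = 0.0178). Basp1, a membrane-attached signalling protein gene and the most abundant tested gene of the list per kb of exon (143 CPM per kb in WT), was at 312, 283 and 265 CPM in WT and 210, 233 and 253 CPM in AEG-1 KO. Its groups were separated only by the gap between 265 and 253 CPM, and its call was the weakest of the list (log2 fold change -0.30 ± 0.08 SE; adjusted p by edgeR = 0.0495). Tspyl5, the listed gene nearest to Mtdh on this side, had 2 reads over all libraries and was not tested.

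RefSeq promoter sequences on GRCm38.p6 (250 bases before to 50 after a start) were at hand for 4 of the listed genes, Basp1, Retreg1, Ank and Ankrd33b. They are shown because these are 4 called genes of the lower side, which moved in different directions, so that a reader can compare their start regions. For Retreg1 the first of its 4 starts is given. Capitals mark each match on either strand to the GC box GGGCGG, and matches may overlap one another.
Ankrd33b promoter (chr15:31367710-31368009, minus strand): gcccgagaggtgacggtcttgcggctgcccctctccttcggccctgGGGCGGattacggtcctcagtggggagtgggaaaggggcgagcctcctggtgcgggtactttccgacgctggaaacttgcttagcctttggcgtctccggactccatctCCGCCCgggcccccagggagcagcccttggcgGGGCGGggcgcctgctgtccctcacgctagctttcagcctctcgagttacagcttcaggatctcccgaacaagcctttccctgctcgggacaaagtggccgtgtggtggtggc
Basp1 promoter (chr15:25413715-25414014, minus strand): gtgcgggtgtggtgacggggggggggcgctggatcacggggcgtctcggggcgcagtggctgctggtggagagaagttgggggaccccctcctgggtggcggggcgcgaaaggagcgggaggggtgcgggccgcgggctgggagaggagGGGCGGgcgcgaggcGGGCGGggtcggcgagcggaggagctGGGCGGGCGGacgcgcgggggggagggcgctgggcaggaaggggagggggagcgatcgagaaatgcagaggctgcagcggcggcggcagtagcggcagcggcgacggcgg
Retreg1 promoter (chr15:25843048-25843347, plus strand): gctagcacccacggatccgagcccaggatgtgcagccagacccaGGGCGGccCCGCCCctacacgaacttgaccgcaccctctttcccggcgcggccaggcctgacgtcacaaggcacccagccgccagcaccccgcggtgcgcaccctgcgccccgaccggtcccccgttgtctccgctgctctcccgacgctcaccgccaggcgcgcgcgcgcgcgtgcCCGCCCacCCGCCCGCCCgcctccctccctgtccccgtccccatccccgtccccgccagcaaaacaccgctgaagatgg
Ank promoter (chr15:27466427-27466726, plus strand): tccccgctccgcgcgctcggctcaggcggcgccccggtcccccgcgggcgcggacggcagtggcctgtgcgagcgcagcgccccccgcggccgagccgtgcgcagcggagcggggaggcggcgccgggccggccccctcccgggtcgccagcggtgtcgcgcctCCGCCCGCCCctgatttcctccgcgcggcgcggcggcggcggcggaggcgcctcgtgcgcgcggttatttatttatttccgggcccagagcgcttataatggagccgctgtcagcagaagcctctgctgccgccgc
All 4 windows held the GC box, 2 to 5 times each, as did 35.7% of the 32851 promoters of the table. None of the 4 held TATAAA, the PU.1 core GAGGAAGT, the CCAAT box ATTGG or the YY1 core AAGATGGC on either strand, which 13.6%, 3.2%, 37.4% and 2.75% of all promoters held. The 4 windows had 22, 38, 37 and 53 CpG dinucleotides in the order shown, beside a median of 7 over all promoters. In the windows shown, genes that rose (Retreg1, Ank) and genes that fell (Ankrd33b, Basp1) were thus alike in holding the GC box and lacking the other motifs. For Retreg1 this depends on the start chosen. Its later starts held 1, 0 and 0 GC boxes and 6, 11 and 4 CpG dinucleotides. Which start is used in these cells was not tested.

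Next to Mtdh on the higher side, Laptm4b and Rida rose, Rpl30 and Vps13b fell, and Matn2, Pop1, Stk3 and Cox6c did not pass the test. Laptm4b (ENSMUSG00000022257, 34238028 to 34284302, plus strand), a lysosomal membrane protein gene 0.155 Mb from the start of Mtdh, was at 12.5, 13.8 and 12.9 CPM in WT and at 38.2, 41.6 and 38.7 CPM in AEG-1 KO. The groups were far apart, 3.03-fold in their means (log2 fold change 1.59 ± 0.06 SE; adjusted p by edgeR = 3.25e-06). It shares a near-identical stretch with 1 pseudogene that is not a row of the table. Rida, a deaminase that clears reactive imines, was at 12.6, 12.4 and 13.8 CPM in WT and 23.6, 22.8 and 22 CPM in AEG-1 KO (log2 fold change 0.82 ± 0.06 SE; adjusted p by edgeR = 0.000189).

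The start of Rida lies 49 bases from that of Pop1, a subunit of the RNA-processing enzymes RNase P and RNase MRP that is read in the other direction. Pop1 was at 16.4, 16.9 and 18.1 CPM in WT and 15.7, 13.3 and 15.4 CPM in AEG-1 KO, with a log2 fold change of -0.21 that did not pass the test (edgeR adjusted p = 0.155). The pair therefore held a called rise and an uncalled value of the opposite sign. Vps13b, a lipid transfer protein of the Golgi, was at 139, 140 and 141 CPM in WT and 113, 115 and 112 CPM in AEG-1 KO, a small but tight difference (log2 fold change -0.30 ± 0.04 SE; adjusted p by edgeR = 0.00216). It shares exonic bases with Cox6c, a cytochrome c oxidase subunit gene on the opposite strand, which lay at -0.31 on the log2 scale (adjusted p in edgeR = 0.0566). Cox6c crossed the threshold in part of the alternative fits, among them edgeR with RLE scaling (0.0494) and upper-quartile scaling (0.0496), and DESeq2 (adjusted p = 0.00591). It shares a near-identical stretch with 18 other genes, so the assignment of its reads is uncertain.

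Rpl30 (ENSMUSG00000058600, 34440505 to 34443640, minus strand), a ribosomal protein gene, showed the smallest adjusted p of the list. It was at 63, 65.1 and 69.6 CPM in WT and at 8.34, 8.71 and 9.04 CPM in AEG-1 KO. No library came between these levels, and the mean fell to 13.2% of WT (log2 fold change -2.92 ± 0.06 SE; adjusted p by edgeR = 2.35e-08). Its reads cannot be assigned with certainty, because 17 pseudogenes, 14 of them rows of the table, hold a stretch of at least 95% identity over 100 nucleotides and an exon of it overlaps D730044K07Rik on the opposite strand. Gm12191 on chromosome 11, identical to Rpl30 at 99.7% of 348 nucleotides, was at 32.2, 27.2 and 31.4 CPM in WT and at 90.8, 85.6 and 99.2 CPM in AEG-1 KO, a 3.04-fold rise of the mean (edgeR adjusted p = 9.47e-06). Rpl30-ps8 on chromosome 12 fell from 68.3 ± 15 to 38.2 ± 5.6 CPM (SD, n = 3; edgeR adjusted p = 0.0118), and Rpl30-ps1 on chromosome 6 was at 166 CPM in both groups (edgeR adjusted p = 0.974). Summed over Rpl30 and the 14 copies, the level was 307, 356 and 339 CPM in WT and 306, 300 and 319 CPM in AEG-1 KO. The summed groups overlapped and the difference did not pass the test (log2 fold change -0.12 ± 0.06 SE; adjusted p by edgeR = 0.276). The deposited counts thus show a different split of reads among Rpl30 and its copies, with no called difference in their sum, and which of these loci made the RNA was not tested.

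**Figure D3:**
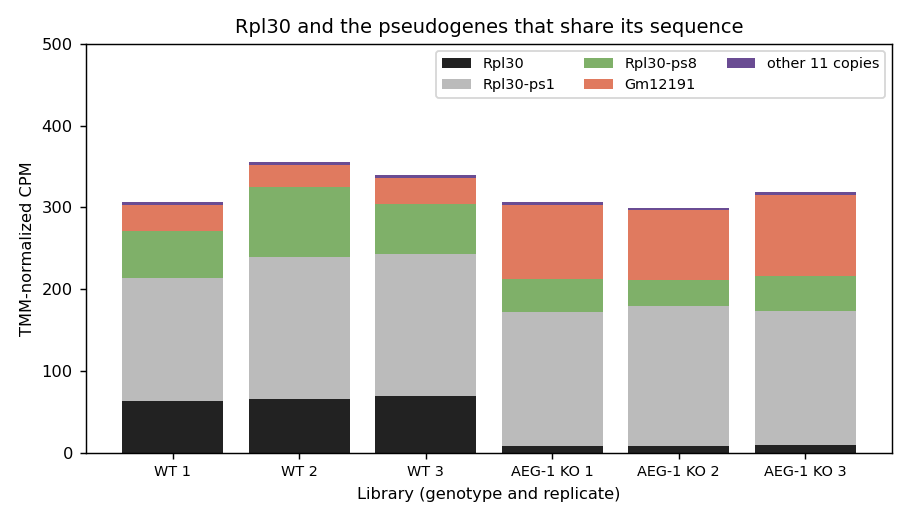
TMM-normalized CPM (linear axis from 0) of Rpl30 and of the 14 pseudogenes that share its sequence, stacked for each of the 6 libraries. Rpl30 (black) takes 63 to 69.6 CPM of the WT bars and 8.34 to 9.04 CPM of the AEG-1 KO bars and Gm12191 (orange) 27.2 to 32.2 and 85.6 to 99.2 CPM, while the whole bars run from 300 to 356 CPM and overlap between the groups.

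The same was seen in part at Polr2k, which encodes a small subunit shared by the nuclear RNA polymerases. Polr2k was at 7.27, 6.1 and 7.91 CPM in WT and 5.1, 4.74 and 4.73 CPM in AEG-1 KO (log2 fold change -0.54 ± 0.11 SE; adjusted p by edgeR = 0.0233). Its processed pseudogene Gm14567 on the X chromosome fell from 6.93 ± 1.45 to 1.47 ± 0.155 CPM (SD, n = 3; edgeR adjusted p = 0.000258), and Gm20305 on chromosome 1 rose from 1.35 ± 0.267 to 4.46 ± 0.809 CPM (edgeR adjusted p = 0.000908). Here the sum of Polr2k and its 3 copies in the table still fell, from 15.4 ± 1.66 to 10.9 ± 1.12 CPM (log2 fold change -0.50; edgeR adjusted p = 0.0189).

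From 2 to 5 Mb on the higher side, the largest change was in Fzd6 at the far end. Fzd6 (39006034 to 39038188, plus strand), a frizzled receptor for Wnt proteins, was expressed at a low level of 0.828, 0.735 and 0.902 CPM in WT and 0.222, 0.047 and 0.112 CPM in AEG-1 KO. Its read totals were 119 and 17, a ratio of 6.33 (95% exact binomial interval 3.79 to 11.2, counting error only), and the log2 fold change was -2.64 ± 0.35 SE (-3.30 without AEG-1 KO replicate 1, which held 10 of the 17 reads; edgeR adjusted p = 0.00268). With 2 and 5 reads in AEG-1 KO replicates 2 and 3, Fzd6 passed the expression filter through its WT libraries, the group where it is higher. Its groups did not overlap, but this separation is therefore no further support for the fall. An exon of Fzd6 overlaps Gm26704 on the opposite strand. Rnf19a, a ubiquitin ligase gene, was at 47.8, 45.6 and 47.2 CPM in WT and 36.2, 34.9 and 34.9 CPM in AEG-1 KO (log2 fold change -0.41, edgeR adjusted p = 0.00142). Atp6v1c1, a subunit of the proton pump that acidifies lysosomes, fell from 234 ± 4.45 to 202 ± 7.22 CPM (edgeR adjusted p = 0.0183). Klf10, a transcription factor gene induced by TGF-beta, was the listed gene that rose in this class, from 80.7 ± 1.14 to 94 ± 2.76 CPM (edgeR adjusted p = 0.0172). Between Klf10 and Atp6v1c1 lies the unlisted Azin1, an inhibitor of antizyme with an exonic overlap with Gm49077 on the opposite strand. It was at 505, 481 and 517 CPM in WT and 346, 342 and 333 CPM in AEG-1 KO (log2 fold change -0.56, edgeR adjusted p = 0.000165). Abundant housekeeping genes of the same stretch were not called: Pabpc1, the cytoplasmic poly(A)-binding protein gene, had a log2 fold change of -0.07 and Ywhaz, a 14-3-3 protein gene, of 0.07 (edgeR adjusted p = 0.394 and 0.301).

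A set of 3 adjoining genes at 5.1 to 5.7 Mb rose from near silence. Rims2 (39198261 to 39684372, plus strand), known for its part in vesicle release at synapses, was at 0.313, 0.256 and 0.347 CPM in WT and 4.68, 4.18 and 4.55 CPM in AEG-1 KO. Its reads numbered 44 and 593 in all, a ratio of 14.9 (95% exact binomial interval 11 to 20.7, counting error only; log2 fold change 3.88 ± 0.16 SE; adjusted p by edgeR = 3.67e-06). The next tested gene, the unlisted Dcstamp (39745930 to 39760938, plus strand), which is required for fusion of osteoclast precursors, had 4, 1 and 7 reads in WT and 36, 34 and 43 in AEG-1 KO (log2 fold change 3.34 ± 0.40 SE; adjusted p by edgeR = 0.0016). Dpys (39768487 to 39857470, minus strand), an enzyme of pyrimidine breakdown, had 1, 6 and 1 reads in WT and 52, 29 and 51 in AEG-1 KO, a ratio of 18.2 (95% exact binomial interval 8.99 to 43.1, counting error only; log2 fold change 4.12 ± 0.45 SE, and 5.29 without WT replicate 2; edgeR adjusted p = 0.000997). Every AEG-1 KO library lay above every WT library in each of the 3 genes. Dcstamp and Dpys had under 10 reads in each WT library and passed the expression filter through the AEG-1 KO libraries alone. Their entry among the tested genes thus depended on the rise itself, and the separation of their groups is no further support for it.

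The genes on both sides of this group behaved otherwise. On its lower side Slc25a32, a mitochondrial carrier gene, and Dcaf13, a gene of ribosome assembly, share a start region with 149 bases between their starts and differed by 0.19 and -0.14 on the log2 scale (adjusted p in edgeR = 0.148 and 0.167). On its upper side Lrp12, a lipoprotein receptor family gene whose start is 86524 bases from that of Dpys, was at 62.1, 62.6 and 62.2 CPM in WT and 60, 60.9 and 62.8 CPM in AEG-1 KO (log2 fold change -0.03, edgeR adjusted p = 0.788). Oxr1, known for protection from oxidative damage, lay at -0.02 on the log2 scale (adjusted p in edgeR = 0.869).

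Another run of rises lay at 8.9 to 9.4 Mb, with Rspo2, Eif3e and Emc2 as consecutive tested genes. Of these, Rspo2 passed the expression filter through its AEG-1 KO libraries alone. Rspo2, a secreted activator of Wnt signalling, had 2, 6 and 1 reads in WT and 34, 23 and 23 in AEG-1 KO, a ratio of 9.83 (95% exact binomial interval 4.93 to 22.3, counting error only; log2 fold change 3.24 ± 0.41 SE, and 4.04 without WT replicate 2; adjusted p by edgeR = 0.002). Emc2 (43477229 to 43527763, plus strand), a subunit of the complex that inserts proteins into the endoplasmic reticulum membrane, was at 84.5, 92.8 and 98.7 CPM in WT and 182, 180 and 168 CPM in AEG-1 KO. All its AEG-1 KO libraries lay above all its WT libraries, at 1.92 times the WT mean (log2 fold change 0.94 ± 0.06 SE; adjusted p by edgeR = 6.63e-05). Its pseudogene Gm7707 on chromosome 14 rose as well, from 5.25 ± 0.516 to 11.8 ± 1.59 CPM (SD, n = 3; edgeR adjusted p = 0.000698), and the sum of both rose by 0.95 on the log2 scale (adjusted p in edgeR = 6.94e-05).

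Eif3e, a subunit of translation initiation factor 3, rose from 107 ± 7.31 to 130 ± 5.5 CPM (log2 fold change 0.28, edgeR adjusted p = 0.0208). Its pseudogenes Eif3s6-ps2 and Eif3s6-ps4 rose more, from 8.34 ± 0.763 to 15.8 ± 0.809 CPM and from 8.33 ± 0.491 to 16.4 ± 1.36 CPM (SD, n = 3; edgeR adjusted p = 0.000394 and 0.000278), while Eif3s6-ps1 was at 41.4 and 41.5 CPM (edgeR adjusted p = 0.975). The sum of Eif3e and the 6 pseudogenes of the table that share a stretch with it rose by 0.31 on the log2 scale (adjusted p in edgeR = 0.0154). That sum was chosen after the data were seen. With all 36 other genes that share a stretch with Eif3e summed, the edgeR adjusted p was 0.129. Eif3e made 107 of the 722 CPM of this wider sum in WT.

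Beyond 10 Mb, Nudcd1 and Med30 fell and Ext1 rose, and the other 6 tested genes were not called. Nudcd1, an overlapping partner of Eny2 on the opposite strand, was at 16, 18 and 18.9 CPM in WT and 13.9, 14.9 and 13 CPM in AEG-1 KO (log2 fold change -0.34, edgeR adjusted p = 0.0408). The call was lost in a sum with 14 pseudogenes that share a stretch with it, several named for other genes (-0.22, edgeR adjusted p = 0.0905). It was also lost in a sum with all 176 genes of the table that share a stretch (0.0053, edgeR adjusted p = 0.957). Nudcd1 made 17.7 of the 2651 CPM of that larger sum in WT, so the larger sum cannot show whether Nudcd1 itself changed. Eny2, a component of the SAGA chromatin complex, had a log2 fold change of 0.22 and was not called (edgeR adjusted p = 0.107). Med30, a Mediator subunit, fell from 10.9 ± 0.356 to 8.72 ± 0.424 CPM (edgeR adjusted p = 0.0303). Ext1 (53064038 to 53346159, minus strand), which polymerises heparan sulfate chains of the kind that syndecans carry, was at 19.9, 22.9 and 22.9 CPM in WT and 37.2, 37.5 and 37.2 CPM in AEG-1 KO (log2 fold change 0.77 ± 0.06 SE; adjusted p by edgeR = 0.000265). It lies 19 Mb from Mtdh, the farthest of the list. Rad21, a cohesin subunit, Eif3h and Trps1 lay in between at 0.04, 0.04 and -0.04 on the log2 scale (adjusted p in edgeR = 0.692, 0.639 and 0.725).

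**Figure D4:**
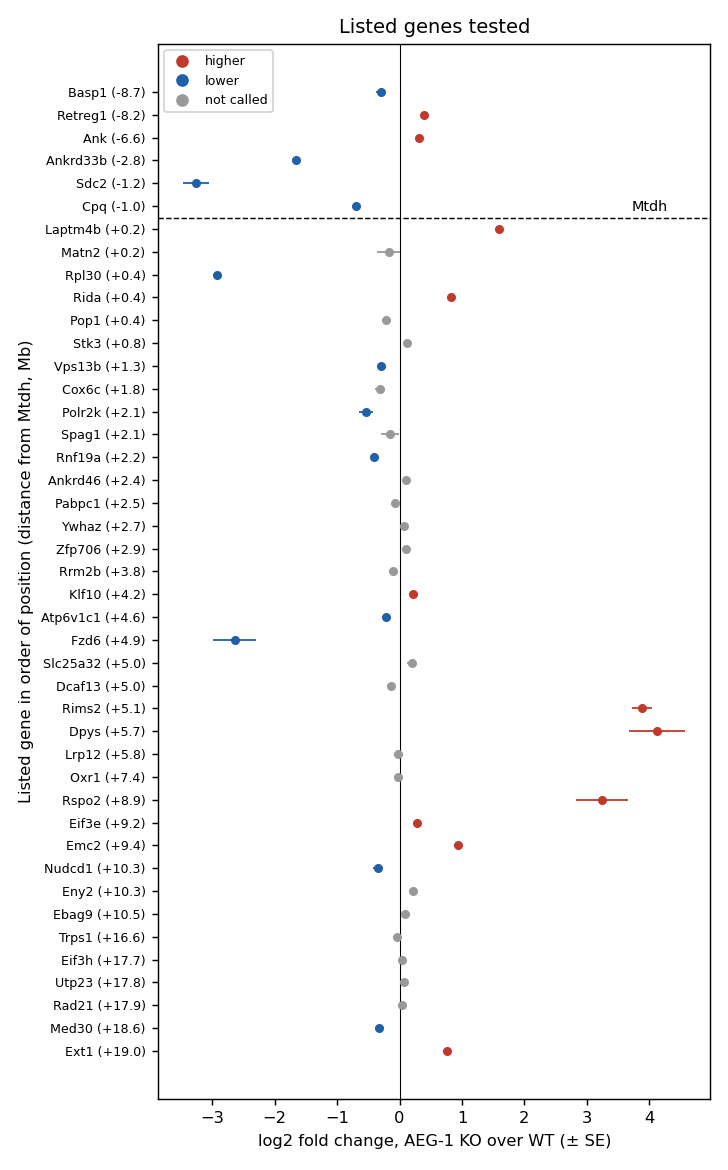
Fold change on the log2 scale (AEG-1 KO relative to WT, dots with SE bars) of the 43 tested listed genes in order of position, each with its distance from Mtdh in Mb, red where called higher, blue where called lower and grey where not called; the dashed line marks the place of Mtdh. Values run from -3.26 for Sdc2 to 4.12 for Dpys, and called genes of both directions lie on each side of Mtdh.

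**Figure D5:**
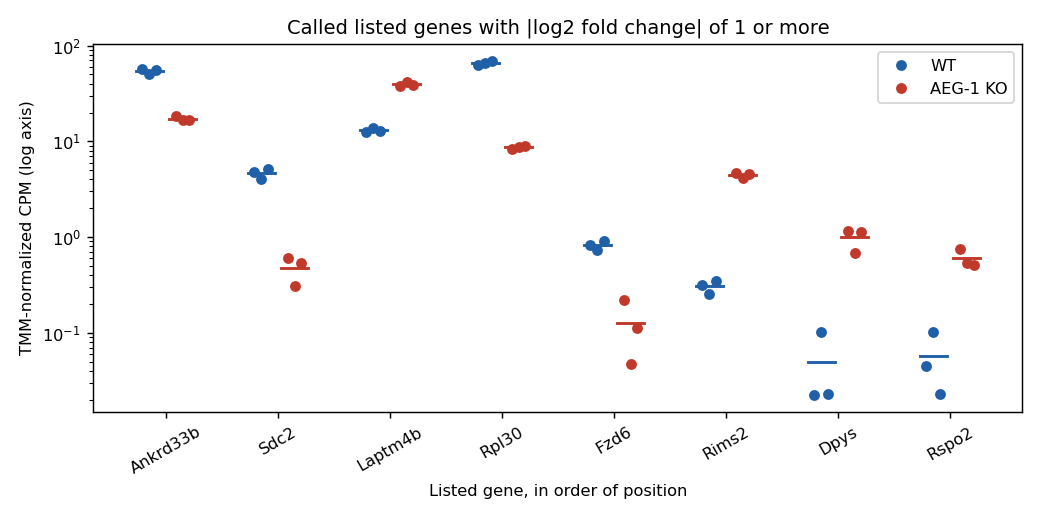
TMM-normalized CPM (log axis) of the 8 called listed genes that changed by 1 or more on the log2 scale in either direction, in order of position, with a dot for each of 3 WT (blue) and 3 AEG-1 KO (red) libraries and a line at each group's mean. No gene has overlapping groups, which the choice of called genes with large changes itself favours. Fzd6, Dpys and Rspo2 stay near or below 1 CPM throughout.

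Called genes stood side by side with uncalled ones. Of the 65 pairs of neighbouring tested genes in the interval, 11 pairs had both genes called, 7 in the same and 4 in opposite directions. A further 27 pairs had 1 called gene and 27 had none. Pairs elsewhere were not counted, and 25 of the 66 genes paired here were called, so these counts cannot show whether calls cluster within the interval. The opposite pairs were Rpl30 with Rida, Klf10 with Azin1, Emc2 with Nudcd1, and Med30 with Ext1. The groups did not overlap in 8 of the 20 uncalled genes, against 26.8% of all genes tested. The 8 were Ywhaz, Ankrd46 and the 6 with the smallest p, a choice that itself favours separate groups. Those 6 were Stk3, a kinase of the Hippo pathway, Cox6c, Eny2, Slc25a32, Pop1 and Dcaf13. Stk3 lay at 0.12 on the log2 scale (adjusted p in edgeR = 0.214). The 14 uncalled genes beyond those 6 lay between -0.17 and 0.11 on the log2 scale. The 9 genes not tested were Tspyl5, Nipal2, Osr2, Grhl2, Ncald, Cthrc1, Zfpm2, Angpt1 and Sybu, of which none had more than 10 reads in a library and Osr2 had none in any.

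The calls of 15 genes held without each library in turn: Retreg1, Ankrd33b, Sdc2, Cpq, Laptm4b, Rpl30, Rida, Vps13b, Rnf19a, Fzd6, Rims2, Dpys, Rspo2, Emc2 and Ext1. The other 8 kept their direction but lost the call in part of these fits. Basp1 and Eif3e lost it without WT replicate 1 or 2 or AEG-1 KO replicate 1 or 2 (edgeR adjusted p from 0.0676 to 0.137 and from 0.0579 to 0.136). Ank and Klf10 lost it without WT replicate 2 or AEG-1 KO replicate 1 or 2 (edgeR adjusted p from 0.0607 to 0.101 and from 0.0607 to 0.127). Polr2k lost it without each AEG-1 KO library (edgeR adjusted p = 0.0528, 0.101 and 0.0757), and Atp6v1c1 without WT replicate 2 or AEG-1 KO replicate 1 or 3 (edgeR adjusted p = 0.0876, 0.0735 and 0.063). Nudcd1 kept it only without WT replicate 1 and Med30 only without WT replicate 3 (edgeR adjusted p of the lost calls from 0.0733 to 0.149 and from 0.0506 to 0.131).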

How the data were processed

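RNA libraries from untreated cultures were prepared with a TruSeq kit, per the labels. The deposited values are raw counts of reads for each Ensembl gene in each library, whole numbers with a name per column, per the file headers. The submitters' processing notes name, without roles, the tools FastQC 0.11.2 and cutadapt 1.9, Subread, featureCounts 1.4.6-p4, further edgeR 3.18.1, and as builds GRCm38 and mm10. They name no annotation release, and strand use and the rule for reads with more than 1 match stand nowhere in the sources used here.

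Identifiers were matched to GENCODE mouse release 21, with 46488 of 46983 matched. The test was edgeR 4.0.16 (R 4.3.3) with quasi-likelihood dispersion, genotype as the only term, TMM factors, a filterByExpr minimum of 10 counts and Benjamini-Hochberg adjustment. An SE is the size of the log2 fold change divided by the root of its F statistic. Copies were sought with BLAST+ 2.17.0 among annotated transcripts. The fit was tested on simulated data. The chi-square per degree of freedom between replicates was 5.58 to 19.3, so no library was counted as a duplicate. Genes named were Mtdh, the called listed genes, the 6 uncalled ones with the smallest p, called genes of the interval, abundant copies and marker lists; further uncalled neighbours and the copies that did not change were chosen after their values were seen. The list, the marker lists and the tests were chosen with earlier results of these data known. Endothelial, lymphoid and dendritic marker lists had no call (3 tested members each). Alternatives were other scalings, filters, DESeq2 1.42.0, limma-voom 3.58.1, a length and GC trend (mgcv 1.9.3), a replicate block and leaving out each library.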

Additional observations from a re-analysis of the deposited data

How the results depend on the processing

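The listed genes gave 20 to 25 calls under 10 other scalings, filters, tools and a length and GC trend, beside 23. Over 29 named genes and 17 alternatives, 437 of 487 values kept direction and call, 40 lost a call, 10 gained one (9 of them Cox6c) and 0 changed sign. Leaving out single libraries gave 15 to 23 listed calls (8 to 11 higher, 7 to 12 lower), 17 to 27 in the interval, 17 to 37 on the rest of chromosome 15 and 380 to 1092 over all genes. Removal of a length and GC trend gave 2504 calls over all genes and 79 on the rest of chromosome 15, and 41.7% of all calls were then higher, beside 52.1%.

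WT and AEG-1 KO libraries with the same replicate number deviated from their group means with correlations of -0.38, -0.24 and -0.41. Libraries with different numbers had correlations of 0.078 to 0.32. Deviations within groups of 3 are tied to one another, so these values cannot settle whether libraries were paired. With the number as a replicate block, 13 listed genes (7 higher, 6 lower), 15 in the interval, 10 on the rest of chromosome 15 and 227 of all genes were called.

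Sums over all genes of the table that share a near-identical stretch were not called for some called genes. These were Rpl30 (-0.12 on the log2 scale, -0.12 in the fit of pseudogene sums), Eif3e (0.13) and Nudcd1 (0.0053, -0.22 with pseudogenes alone). Among uncalled genes the sums lay at 0.035 for Cox6c, 0.065 for Slc25a32, -0.003 for Dcaf13 and 0.045 for Eny2. In WT, Nudcd1 made 17.7 of the 2651 CPM of its sum, Slc25a32 12.8 of 2245, Cox6c 52.8 of 907 and Eif3e 107 of 722. Sums made mostly of other genes cannot show whether the listed gene itself changed. The pseudogene sums were chosen after the data were seen. At 42.5 reads per CPM in the smallest library, Fzd6, Dpys, Rspo2 and the untested genes are limited by depth, and DESeq2 gave Fzd6, Dpys and Rspo2 no adjusted p.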
